A study of Mus musculus with 31 samples.

Results

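Mt1, Mt2 and Mt3 are the metallothionein genes described here. They were chosen by symbol, with their levels in both experiments already known, and all 3 were found by Ensembl identifier among the 34865 genes of the bulk table and the 55487 genes of the Smart-seq2 table. Bulk RNA-seq compared dorsal diencephalon (3 libraries) with ventral diencephalon (3 libraries), both from wild-type mice at embryonic stage E10.5. Smart-seq2, which reads whole transcripts from as little as 1 cell, compared 13 libraries of Axin2-null cells (genotype label Axin2(-/-), green) with 12 libraries of wild-type cells (Axin2(+/+), red) from the medial cortex at E11.5. Both cell genotypes came from Emx1-CreERT2::MADM-11::Axin2LacZ mice, in which an inducible Cre expressed from Emx1, a gene of the dorsal telencephalon, exchanges arms between homologous chromosomes at cell division and so marks the null daughter cells and the wild-type ones by colour (MADM, mosaic analysis with double markers). Both colours arise only where the Cre is expressed. When Cre was induced and how many embryos were used are not given in the sources used here. The Smart-seq2 samples are labelled as cells without an animal of origin; each genotype therefore counted as 1 sample, and the spread over its libraries is a description.

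Metallothioneins are very small, cysteine-rich proteins that bind zinc and copper and can give these metals up to other proteins or quench oxidants. Mt1 and Mt2 are made in most tissues and are switched on by zinc, cadmium and glucocorticoids; zinc acts through MTF1, a transcription factor that binds metal response elements in their promoters. Mt3 is the brain form, first known as a growth inhibitory factor for neurons, and responds little to metals. Mt4, the remaining gene of the mouse family, belongs to stratified epithelia.

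The members are neighbours on chromosome 8 (GENCODE M21, GRCm38, plus strand). Mt3 (ENSMUSG00000031760) lies at 94152607 to 94154146, Mt2 (ENSMUSG00000031762) at 94172664 to 94173568 and Mt1 (ENSMUSG00000031765) at 94179082 to 94180327. The 3 genes together span 27.7 kb, and Mt4 (ENSMUSG00000031757) lies upstream at 94137197 to 94139031. The coding sequence has 61 codons in Mt1 and in Mt2, 68 in Mt3 and 62 in Mt4, stop codon not counted. Aligned coding sequences were 79.6% identical between Mt1 and Mt2, 66.2% between Mt1 and Mt3 and 67.6% between Mt2 and Mt3. No run of 50 bases in the annotated transcripts of any member occurred in those of another gene; at 30 bases, only 4 of 574 runs in Mt2 did, all shared with Pip5k1a. Mt2 overlaps an antisense gene, Gm45774, by 749 bases. Whether the counting used strand is not given in the sources used here, so reads of this pair may not be told apart.

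A window around the RefSeq start of each member is shown, because regulators of the family act at promoters. Each window is RefSeq's on GRCm38.p6, plus strand, and runs from 250 bases before the RefSeq start to 30 bases after it. Capitals mark the core of the metal response element, TGCACNC or TGCGCNC, on either strand. The windows are chr8:94178839-94179118 for Mt1, chr8:94172368-94172647 for Mt2 and chr8:94152357-94152636 for Mt3.
Mt1: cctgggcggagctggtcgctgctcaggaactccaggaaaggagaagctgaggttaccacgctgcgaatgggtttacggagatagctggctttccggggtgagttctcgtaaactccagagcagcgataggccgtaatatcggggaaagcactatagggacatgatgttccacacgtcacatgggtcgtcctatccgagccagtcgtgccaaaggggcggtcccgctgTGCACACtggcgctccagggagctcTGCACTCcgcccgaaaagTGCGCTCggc
Mt2: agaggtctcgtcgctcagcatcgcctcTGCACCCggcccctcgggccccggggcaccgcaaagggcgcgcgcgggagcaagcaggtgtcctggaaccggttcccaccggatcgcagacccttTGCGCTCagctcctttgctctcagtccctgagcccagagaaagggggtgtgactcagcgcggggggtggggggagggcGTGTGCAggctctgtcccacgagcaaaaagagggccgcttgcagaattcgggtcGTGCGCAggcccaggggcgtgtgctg
Mt3: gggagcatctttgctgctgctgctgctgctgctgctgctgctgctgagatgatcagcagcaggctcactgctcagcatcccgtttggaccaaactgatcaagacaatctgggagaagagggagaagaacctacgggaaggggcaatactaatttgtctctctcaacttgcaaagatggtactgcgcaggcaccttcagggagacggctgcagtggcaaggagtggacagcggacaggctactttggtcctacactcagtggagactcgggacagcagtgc
The Mt1 window held 3 cores, all on the plus strand. The Mt2 window held 4, with 2 on each strand. These letters did not occur in the Mt3 window. Of 32817 promoter windows of the same length, searched for the same letters (TGCACNC or TGCGCNC, either strand), 24.1% held at least 1 core, 1.73% at least 3 and 0.405% at least 4. The antioxidant response element core TGACNNNGC occurred 1 time, in the Mt2 window, and in 11.48% of all windows. The letters CACGTG, bound by the USF factors, occurred in no member's window and in 6.79% of all windows. The annotated starts lie upstream of a TATAAA word, which begins at base 129 of the Mt1 transcript, base 90 of Mt2 and base 107 of Mt3, against 2.50% of 54744 annotated transcripts with that word in their first 200 bases. Each printed window ends before this word, so the windows do not cover the bases around it. The first 200 bases of the transcript held 4 metal response element cores in Mt1, 3 in Mt2 and 3 in Mt3. The Mt1 cores at bases 10 and 28 are also in its window and so are counted in both. The Mt2 and Mt3 windows hold none of these transcript cores in full. At least 3 were found in 0.586% of all such starts and at least 4 in 0.104%. Matches describe the letters, not binding.

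Levels in the bulk table are given as CPM, counts per 1000000 after TMM scaling. Total counts were 17604166 to 20622702 in dorsal and 17769770 to 20838002 in ventral libraries. No pair of libraries of a region agreed within sampling noise, although libraries 1 and 2 were closest in each region (chi-square per gene 8.52 in dorsal and 19.6 in ventral, and 70.0 to 129 for the other pairs). Nothing says that the libraries came from separate embryos, so p-values reflect only how much these libraries vary, which could be technical variation. Axin2, the gene of the study's title, averaged 13.2 ± 5.22 CPM in dorsal diencephalon, against 3.12 ± 1.14 CPM in ventral (SD, n = 3 each). In the Smart-seq2 libraries Axin2 ranged over 0 to 22.4 TPM (transcripts per 1000000) in null and 4.32 to 35.9 TPM in wild type. Its mean was 6.17 TPM in null and 13.8 TPM in wild type, and the genotypes overlapped, so that a single library cannot be checked against its label by this gene; which part of Axin2 the LacZ allele removes is not given in the sources used here.

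All 3 metallothioneins were lower in dorsal than in ventral diencephalon. Mt1 differed most, by 8.33-fold, while Mt2 and Mt3 differed by 2.23-fold and 1.998-fold. The genes were chosen with these values known, so the levels are a description and carry no test.

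Mt1 was at 11.1, 12.9 and 28.2 CPM in the 3 dorsal libraries, from 235, 269 and 496 counts. In the ventral libraries it was at 137, 197 and 101 CPM, from 2774, 3631 and 1808 counts. The lowest ventral library was well above the highest dorsal library, so the regions did not overlap. The means were 17.4 ± 9.37 CPM in dorsal and 145 ± 48.5 CPM in ventral (SD, n = 3 each), a log2 fold of -3.06, dorsal over ventral.

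Mt2 was at 5.32, 4.86 and 12.7 CPM in dorsal, against 13.3, 16.6 and 20.96 CPM in ventral libraries. The regions did not overlap, but the third dorsal library came close to the first ventral one. The means were 7.61 ± 4.38 CPM in dorsal and 17.0 ± 3.84 CPM in ventral (SD, n = 3 each), with a log2 fold of -1.16.

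Mt3, the brain form, was at 9.42, 9.34 and 18.3 CPM in dorsal, against 24.7, 17.6 and 31.8 CPM in ventral libraries. Here the regions overlapped, since the third dorsal library was above the second ventral one. The means were 12.4 ± 5.17 CPM in dorsal and 24.7 ± 7.08 CPM in ventral (SD, n = 3 each), with a log2 fold of -0.998. Mt4 had between 0 and 2 counts in every bulk library and was not tested.

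**Figure D1:**
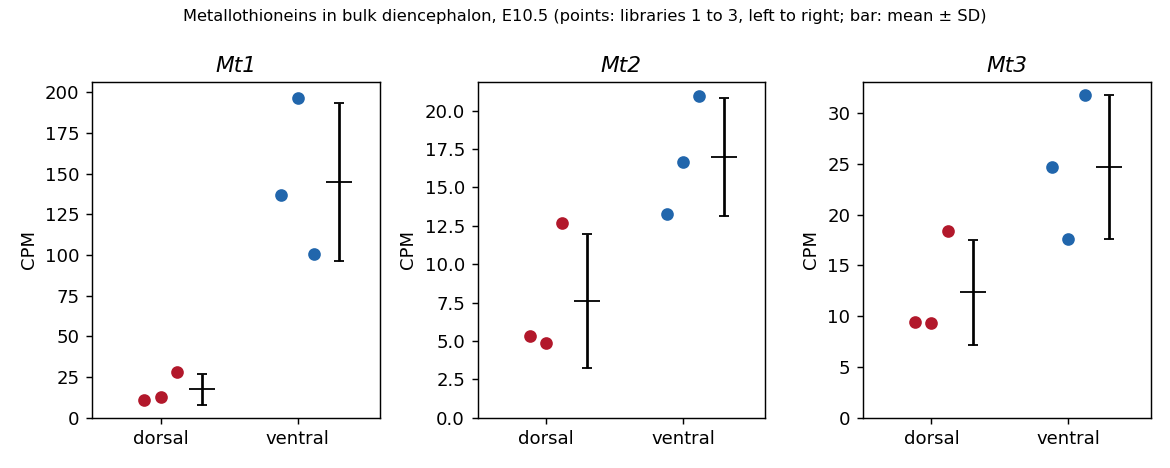
CPM of Mt1, Mt2 and Mt3 in each bulk library (points, libraries 1 to 3 from left to right, dorsal left of ventral) with the mean and SD beside them. Dorsal library 3 is the highest dorsal library for every member, and only Mt3 overlaps between the regions.

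Thus 2 of the 3 members were lower in dorsal with no overlap between regions, a pattern that 20.0% of the 14701 tested genes also had; because the members were chosen on this contrast, nothing is read from their share. Dorsal library 3 was the highest dorsal library for all 3 members, but this was not particular to them. It was also the highest for the copper gene Atox1 (45.3, 53.2 and 138 CPM in dorsal libraries 1 to 3). For Slc31a1, another copper gene, it was the lowest (76.1, 80.3 and 29.3 CPM). The share of all genes with either order is not given here. The order of the ventral libraries was not shared: Mt1 was highest in ventral library 2, Mt2 and Mt3 in ventral library 3.

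Per length of all annotated exons, the members' levels were close to each other in dorsal and far apart in ventral diencephalon. On this length, Mt1, Mt2 and Mt3 were at 13.96 ± 7.52, 12.9 ± 7.44 and 11.6 ± 4.85 CPM per kb in dorsal libraries (SD, n = 3), differences well within the spread. In ventral libraries Mt1 was at 116 ± 38.9 CPM per kb, above Mt2 at 28.9 ± 6.54 and Mt3 at 23.2 ± 6.64, of which the last 2 lay within each other's spread. The per-length ratio of Mt1 to Mt2 was 0.98 to 1.26 over the dorsal libraries and 2.27 to 5.58 over the ventral ones, without overlap. Annotated exons include retained introns, and with the spliced transcript as length (549 bases for Mt1, 511 for Mt2, 536 for Mt3) Mt3 stood above Mt2: Mt1, Mt2 and Mt3 were then at 31.7, 14.9 and 23.1 CPM per kb in dorsal and 264, 33.2 and 46.1 in ventral. Mt1 was the highest member on either length in ventral libraries, and the Mt1 to Mt2 ratio on the spliced length was 1.94 to 2.48 in dorsal and 4.48 to 11.01 in ventral. By mean CPM per kb of exons, Mt1 ranked 3941st of 24663 detected genes in dorsal and 542nd of 23071 in ventral. Mt2 ranked 4183rd in dorsal and 2179th in ventral, and Mt3 4538th in dorsal and 2666th in ventral.

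Markers of other organs moved with the region. Metallothioneins are also made in intestine, pancreas and liver. Of 14 small intestine genes tested, 13 were higher in ventral at an adjusted p under 0.05 (edgeR quasi-likelihood test with Benjamini-Hochberg adjustment), as were all 9 of exocrine pancreas; over all genes, 9.54% were called higher in ventral and 7.14% higher in dorsal. The intestine genes summed to 9.93, 10.3 and 12.9 CPM in the dorsal libraries and 5062, 9092 and 2430 CPM in the ventral libraries, and the pancreas genes to 2.87, 3.08 and 4.26 CPM in dorsal and 1596, 2956 and 636 CPM in ventral. Of 7 liver genes 1 passed the filter on low counts, Apoa1, which intestine also makes, and it was higher in ventral (log2 fold change -7.99, adjusted p 0.000530, edgeR). The liver gene Alb had 2, 1 and 6 counts in the dorsal libraries and 1, 8 and 49 in the ventral libraries. The intestine and pancreas sums both order the ventral libraries as Mt1 does, with library 2 highest and library 3 lowest. Mt2 and Mt3 do not follow that order, being highest in library 3. Leaving intestine, pancreas, liver and mitochondrially encoded genes out of the library total gave log2 folds of -3.05, -1.15 and -0.99 for Mt1, Mt2 and Mt3; this changes the scale only, and the part of such RNA in the members' own counts was not tested. In bulk tissue, fewer cells of a type and less RNA per cell cannot be told apart. For this and the later bulk lists, the shares of all genes are those of edgeR at the adjusted threshold. Over all genes, DESeq2 called 1542 higher in dorsal and 2009 higher in ventral. No share of all genes is given at an unadjusted p. Of 9 neural progenitor genes edgeR called 3 higher in dorsal and 0 in ventral (1 in ventral at an unadjusted p under 0.05 and 1 by DESeq2). Of the 3, Pax6, a progenitor transcription factor of dorsal regions named after its values were seen, averaged 90.2 ± 7.24 CPM in dorsal, against 4.81 ± 0.680 CPM in ventral (SD, n = 3 each; adjusted p 5.25e-05, edgeR). Astrocytes, cells known for Mt3 in the adult brain, left almost no marker RNA: their 5 genes summed to 1.14 to 2.94 CPM in dorsal and 2.29 to 7.43 CPM in ventral libraries.

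The known regulators of the family were then compared between the regions, beginning with MTF1, the zinc sensor. Mtf1 was at 23.7, 22.7 and 19.6 CPM in dorsal, against 25.2, 21.5 and 5.58 CPM in ventral libraries, giving a log2 fold change of 0.34 (standard error 0.49, adjusted p 0.691, edgeR). The regions overlapped, and ventral library 3 stood apart from the other 5 libraries. Of 10 regulators, edgeR called 1 higher in dorsal (2 at an unadjusted p under 0.05 and 2 by DESeq2) and 2 in ventral (3 and 3). Over all genes, edgeR called 7.14% higher in dorsal and 9.54% higher in ventral. Nr3c1, the glucocorticoid receptor, fell to 3.11, 3.47 and 4.77 CPM in the dorsal libraries, against 12.7, 14.5 and 14.4 CPM in the ventral libraries (log2 fold change -1.87, standard error 0.33, adjusted p 0.00744, edgeR). Nfe2l2, which encodes the oxidant-responsive factor NRF2, fell to 11.1, 9.15 and 6.59 CPM in dorsal, against 35.5, 53.0 and 33.2 CPM in ventral (log2 fold change -2.18, standard error 0.30, adjusted p 0.00228, edgeR). For both genes every dorsal library was below every ventral library, as for 20.0% of the 14701 tested genes. Mt1 and Mt2 also had this pattern, but they were chosen on this contrast, and nothing is read from the match. Ep300, a histone acetyltransferase that works with MTF1, averaged 76.9 ± 6.17 CPM in dorsal, against 42.8 ± 10.1 CPM in ventral (SD, n = 3 each; adjusted p 0.0293, edgeR), a call lost without dorsal library 1 or 2 or ventral library 1 or 2 (adjusted p 0.107 to 0.125, edgeR).

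Zinc transporters move zinc out of the cytosol (the Slc30 family) or into it (the Slc39 family). Of 24 such genes 20 were tested, and edgeR called 1 higher in dorsal and 0 higher in ventral, beside 7.14% and 9.54% of all genes. At an unadjusted p under 0.05 the zinc transporter counts were 2 and 3, and DESeq2 called 1 and 3. The edgeR shares of all genes do not apply to these counts, since DESeq2 called 1542 and 2009 of all genes. The gene called by edgeR was Slc30a10, a member of the zinc family that is best known as a manganese exporter. It was at 62.6, 55.0 and 63.1 CPM in dorsal, against 0.939, 3.36 and 0.836 CPM in ventral libraries, opposite in direction to the metallothioneins (log2 fold change 5.14, standard error 0.54, adjusted p 0.000692, edgeR). The median log2 fold change of the 20 transporters was 0.02, beside 0.0062 for all genes tested. Slc30a1, a zinc exporter switched on by MTF1 and named here for that reason after its values were seen, averaged 5.77 ± 1.31 CPM in dorsal, against 9.34 ± 1.43 CPM in ventral (SD, n = 3 each; adjusted p 0.225, edgeR). The 3 genes that DESeq2 called higher in ventral, named likewise, were Slc30a6, Slc39a1 and Slc39a4, of which Slc39a4 is the zinc importer of the intestine. The same 3 passed edgeR without ventral library 3, and without dorsal library 3 Slc39a11 passed as a 2nd gene higher in dorsal.

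Copper and redox genes are read beside the 16.7% of all tested genes that were called in either direction. Of 11 copper-handling genes, edgeR called 0 higher in dorsal (0 at an unadjusted p under 0.05 and 0 by DESeq2) and 1 higher in ventral. This was Slc31a2, a copper transporter of intracellular membranes, averaging 6.81 ± 0.600 CPM in dorsal, against 17.6 ± 5.72 CPM in ventral (SD, n = 3 each; adjusted p 0.0241, edgeR), a call lost without dorsal library 1 or 2 or ventral library 1 (adjusted p 0.0563 to 0.0936, edgeR). Of 19 redox and glutathione genes, 0 were higher in dorsal by edgeR (0 at an unadjusted p under 0.05 and 0 by DESeq2) and 1 was higher in ventral (3 and 2). The gene called by edgeR was Fth1. Fth1, the ferritin heavy chain that stores iron, averaged 533 ± 89.4 CPM in dorsal, against 1128 ± 245 CPM in ventral (SD, n = 3 each; log2 fold change -1.08, adjusted p 0.00884, edgeR).

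Of 8 glucocorticoid-responsive genes, edgeR called 1 higher in dorsal (1 at an unadjusted p under 0.05 and 1 by DESeq2) and 2 higher in ventral (3 and 2). Over all genes, edgeR called 7.14% higher in dorsal and 9.54% higher in ventral. Sgk1, a kinase, averaged 15.9 ± 2.95 CPM in dorsal, against 48.5 ± 10.3 CPM in ventral, and Dusp1, a MAP kinase phosphatase, 121 ± 4.25 CPM in dorsal, against 259 ± 25.1 CPM in ventral (SD, n = 3 each; adjusted p 0.00419 and 0.00239, edgeR). Ddit4, an inhibitor of mTORC1, ran the other way at 17.8 ± 4.96 CPM in dorsal, against 5.50 ± 1.82 CPM in ventral (SD, n = 3 each; adjusted p 0.0193, edgeR). Of 9 hypoxia genes edgeR called 1 higher in dorsal (2 at an unadjusted p under 0.05 and 2 by DESeq2) and 0 in ventral (0 and 0). Ndrg1, a stress-responsive gene, averaged 21.0 ± 5.17 CPM in dorsal, against 7.11 ± 1.94 CPM in ventral (SD, n = 3 each; adjusted p 0.0155, edgeR). The Ddit4 call was lost without dorsal library 2 or ventral library 1 or 2 (adjusted p 0.0600 to 0.0685, edgeR) and the Ndrg1 call without dorsal library 1 or 2 or ventral library 1 (adjusted p 0.0658 to 0.0845, edgeR).

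**Figure D2:**
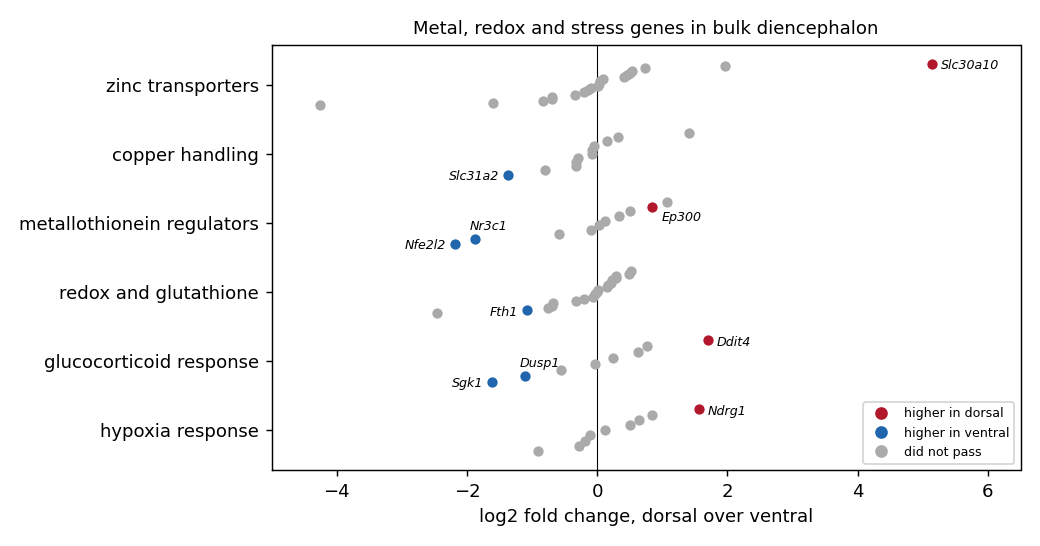
Log2 fold change, dorsal over ventral, of every tested gene of 6 lists in the bulk libraries, with 1 point per gene and names on the genes that passed an adjusted p of 0.05 (edgeR). Slc30a10 stands apart at 5.14, and genes of each list lie on both sides of 0.

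Of 8 tested neighbours of the cluster, edgeR called 0 higher in dorsal (0 at an unadjusted p under 0.05 and 0 by DESeq2) and 1 higher in ventral (2 and 2). The edgeR share was near the 16.7% of all genes called in either direction, and the list median was 0.06. The gene called was Herpud1, an endoplasmic reticulum stress gene 207.4 kb downstream of the Mt1 start, averaging 41.9 ± 2.98 CPM in dorsal, against 83.1 ± 15.4 CPM in ventral (SD, n = 3 each; log2 fold change -0.99, adjusted p 0.0116, edgeR); leaving out dorsal library 1 or ventral library 2 took it above the threshold (adjusted p 0.0618 and 0.0517, edgeR). The nearest tested neighbours on either side, named for their position, were Bbs2, a gene of the ciliary BBSome, and Nup93, a nuclear pore gene, neither of which passed. Bbs2 averaged 23.1 ± 3.94 CPM in dorsal, against 36.0 ± 3.52 CPM in ventral (adjusted p 0.0835, edgeR) and Nup93 78.6 ± 19.1 CPM in dorsal, against 70.1 ± 11.1 CPM in ventral (adjusted p 0.682, edgeR; SD, n = 3 each).

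**Figure D3:**
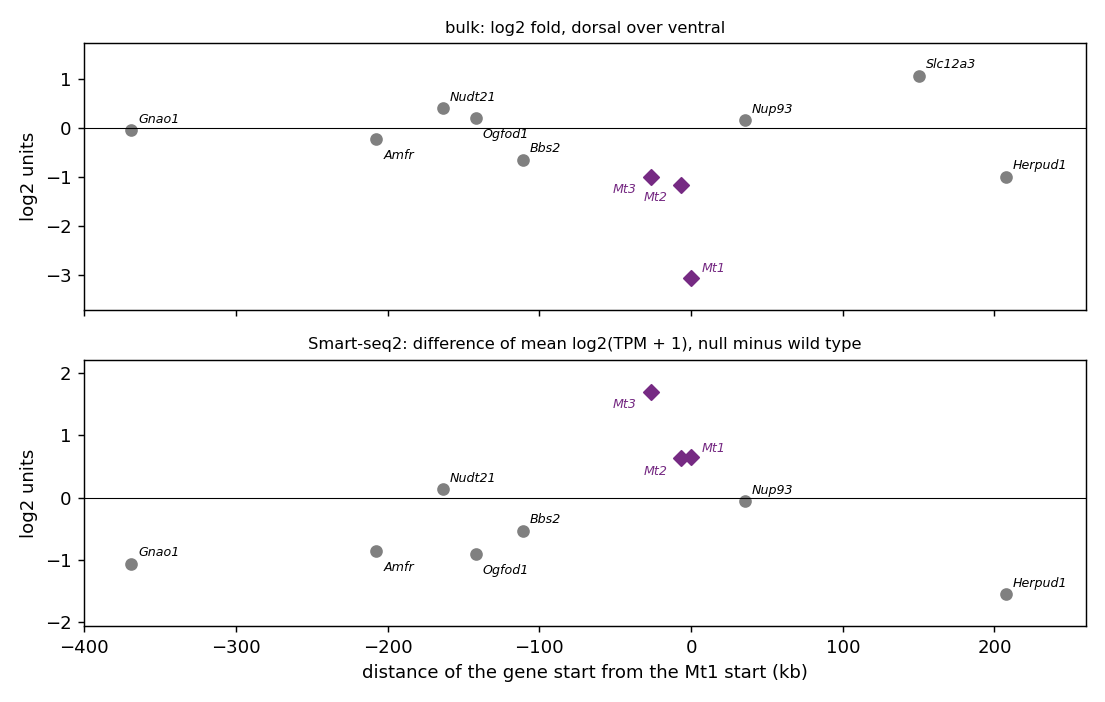
Members (diamonds) and neighbouring genes (circles) by distance of the gene start from the Mt1 start in kb. The upper axis gives the bulk log2 fold, dorsal over ventral, and the lower axis the Smart-seq2 difference of mean log2(TPM + 1), null minus wild type; the members lie below 0 in bulk and above 0 in Smart-seq2, while Nup93, 35.5 kb downstream, lies near 0 in both.

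In the E11.5 medial cortex all 3 metallothioneins were higher in Axin2-null than in wild-type libraries on average, with the genotypes overlapping for each of them. The Smart-seq2 values are TPM, which keeps no depth, and differences are of mean log2(TPM + 1), null minus wild type, which understates the change of low genes. Progenitor markers were present in both genotypes, with sums of 1369 to 3222 TPM in null and 1028 to 2956 TPM in wild type. Of the 14 intestine genes, 10 were at 0 in every null library and 9 in every wild-type library, and of the 9 pancreas genes, 8 were at 0 in every null library and 9 in every wild-type library. Red blood cell genes were present in all 25 libraries, their 7 genes summing to 2570 to 43531 TPM, median 7250, in null and 978 to 31000 TPM, median 5749, in wild type. Of the 6 that averaged 1 TPM or more, 2 differed by at least 0.5 on the log2 scale towards null and 0 towards wild type. The shares of all genes were 8.33% and 30.7%. The median of the 6 was 0.37, beside -0.22 for all genes. None of the 7 was at 0 in every library of a genotype, and their part in the members' differences was not tested.

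Mt1 ran over 224, 769 and 1484 TPM (lowest, median, highest) in the 13 null libraries and 177, 493 and 902 TPM in the 12 wild-type libraries. Of the null libraries 5 were above the highest wild-type library and 10 above the wild-type median. The means were 833 ± 406 TPM in null and 504 ± 197 TPM in wild type (SD, n = 13 and 12 libraries), 1.65-fold higher in null, with a difference of 0.65.

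Mt2 ran over 69.6, 395 and 912 TPM in null and 103, 268 and 574 TPM in wild type. Here 3 null libraries were above the highest wild-type library and 1 was below the lowest. The means were 462 ± 257 TPM in null and 271 ± 118 TPM in wild type (SD, n = 13 and 12 libraries), 1.71-fold higher in null, with a difference of 0.63.

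Mt3 ran over 7.15, 50.1 and 186 TPM in null and 0, 16.7 and 60.0 TPM in wild type. It was at or above 1 TPM in 13 of 13 null libraries (exact 95% Clopper-Pearson interval 75.3% to 100%) and 10 of 12 wild-type libraries (51.6% to 97.9%). These intervals cover counting error over libraries only, and no comparison of the genotypes is read from them. Of the null libraries 5 were above the highest wild-type library. The means were 60.7 ± 51.3 TPM in null and 23.1 ± 21.2 TPM in wild type (SD, n = 13 and 12 libraries), 2.62-fold higher in null, with a difference of 1.69. Mt4 was listed at 0 in all 25 libraries.

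**Figure D4:**
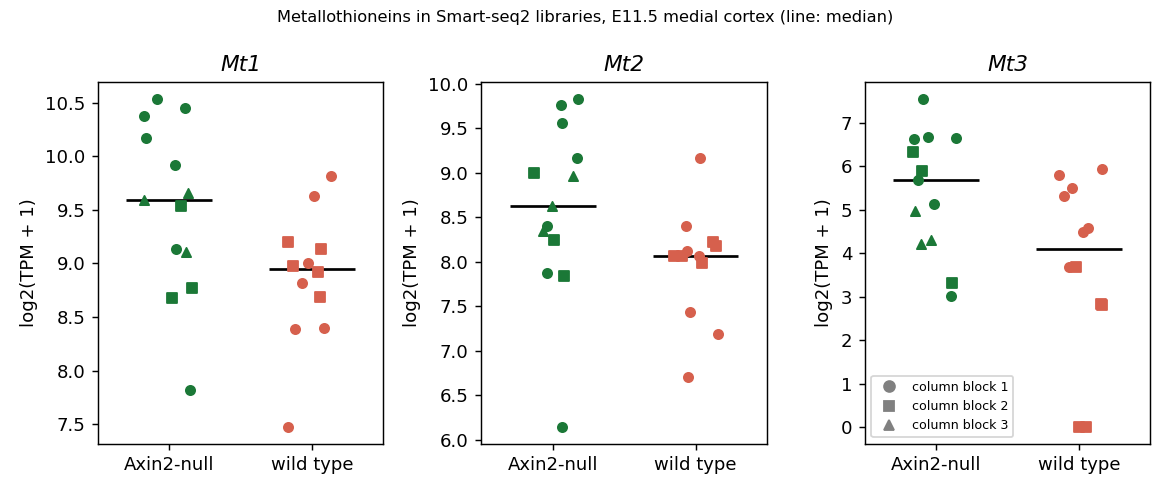
Log2(TPM + 1) of Mt1, Mt2 and Mt3 in each Smart-seq2 library, Axin2-null left of wild type, with the median as a line and a symbol for each block of columns of the deposited table. The genotypes overlap for every member, and the 2 wild-type libraries with Mt3 at 0 belong to block 2.

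The median difference of all 13680 genes that averaged 1 TPM or more was -0.22, so most genes were slightly lower in null. Relative to it the members differed by 0.87 (Mt1), 0.85 (Mt2) and 1.92 (Mt3). A difference of at least 0.5 towards null was present in 8.33% of genes and one of at least 1 in 1.39%; all 3 members passed the smaller size and Mt3 the larger one. In the opposite direction the shares were 30.7% and 8.14%. The members were chosen on this contrast and nothing is read from these counts.

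Mt3 lay below the other members in every Smart-seq2 library, being at most 14.6% of the summed TPM of the 3 genes in null and 7.34% in wild type. The Mt1 to Mt2 ratio was 1.44 to 3.23 with a median of 1.77 in null, and 1.22 to 3.27 with a median of 1.75 in wild type, so the genotypes covered almost the same range. By mean TPM, Mt1 ranked 204th of 20158 detected genes in null and 285th of 19930 in wild type. Mt2 ranked 345th in null and 565th in wild type, and Mt3 2175th in null and 4849th in wild type.

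The columns of the Smart-seq2 table fall into 3 blocks by their order in the header, and the labels do not say what the blocks are. Within block 1 (7 null and 7 wild-type libraries) the differences were 0.98 for Mt1, 0.81 for Mt2 and 0.86 for Mt3. Within block 2 (3 null and 5 wild-type libraries) they were 0.01, 0.26 and 3.32. The Mt1 difference was thus near 0 in block 2, and the Mt3 difference was present in both blocks but of different size. In block 2, Mt3 was at 8.91, 58.4 and 79.8 TPM in the null libraries and at 0 to 11.9 TPM, median 5.96, in the wild-type libraries. Block 3 held 3 null libraries only, with Mt1 at 549 to 809 TPM, Mt2 at 324 to 499 TPM and Mt3 at 17.6 to 30.3 TPM. Other measures also differed between genotypes. Genes at or above 1 TPM numbered 7863 to 11852, median 10791, in null and 8693 to 12209, median 11271, in wild type, and in block 2 the medians were 8537 in null and 11570 in wild type. Mitochondrially encoded genes took 0.384% to 5.71% of TPM, median 1.84%, in null and 2.11% to 8.80%, median 3.40%, in wild type. Rescaling TPM without those genes gave 0.62, 0.60 and 1.68 for Mt1, Mt2 and Mt3; the part of blocks and detection in the differences was not tested.

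Across libraries, Mt1 and Mt2 were high or low together. In the order of likeness to Mt1 and to Mt2, Mt3 did not follow them more closely than most genes did. The Pearson correlation of log2(TPM + 1), after subtracting the mean of each genotype, was 0.86 between Mt1 and Mt2, 0.18 between Mt1 and Mt3 and 0.17 between Mt2 and Mt3 over the 25 libraries. Over all 7142 genes compared, the median was 0.21 with Mt1 and 0.19 with Mt2, and Mt3 ranked 3824 for Mt1 and 3789 for Mt2. Between Mt1 and Mt2 it was 0.94 within null and 0.70 within wild type, and 0.88 with the means of blocks subtracted as well. The Mt1 with Mt3 value was 0.35 within null, 0.04 within wild type and 0.29 with block means subtracted, and the Mt2 with Mt3 value 0.34, 0.01 and 0.33. By ranks (Spearman), Mt1 with Mt3 was at 0.52 within null and 0.15 within wild type, and Mt2 with Mt3 at 0.51 and 0.08. These are descriptions over libraries that share their depth and composition, since TPM of 1 library sum to a constant.

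**Figure D5:**
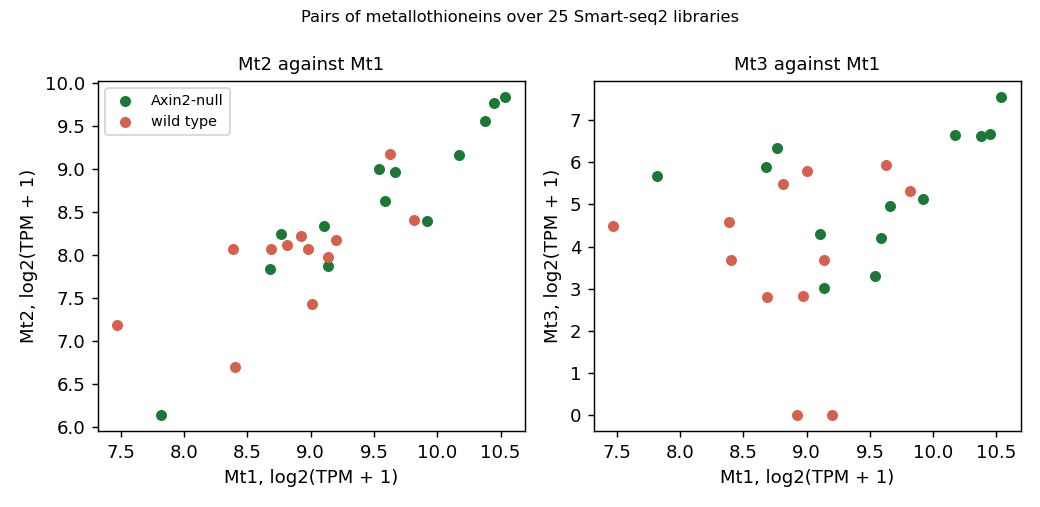
Log2(TPM + 1) of Mt2 (left) and Mt3 (right) against Mt1, with 1 point per Smart-seq2 library, Axin2-null and wild type in different colours. Mt2 follows Mt1 over the whole range (0.94 in null and 0.70 in wild type), while Mt3 spreads widely at any level of Mt1 (0.35 and 0.04).

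Among 7142 genes averaging at least 10 TPM and at least 1 TPM in 50% of the libraries, Mt2 was the gene most like Mt1, and Mt1 the gene most like Mt2. After Mt2, the genes most like Mt1 were Hmgn2, a nucleosome-binding protein gene (0.82), Atp5l, an ATP synthase subunit gene (0.80), and the fatty acid binding protein genes Fabp5 (0.80) and Fabp7 (0.80), of which Fabp7 is a radial glia marker. After Mt1, those most like Mt2 were Ndufb6, a respiratory complex I gene (0.82), A830082K12Rik (0.81), Cox7b, a cytochrome oxidase subunit gene (0.81), and Hmgn2 (0.81). Values at the 99th percentile of all candidates were 0.68 for both. The 50 genes most like Mt1 had a median of 2007 exon bases, against 4014 for all candidates, so short transcripts such as the members' were common among them. Abundant genes were common too, with a median level of 196 TPM for the 50 most like Mt1 and 202 TPM for Mt2, against 33.1 TPM for all candidates. Mt3 averaged 42.7 TPM, and the part of level in its low likeness to Mt1 and Mt2 was not tested.

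In the order of likeness to Mt3, Mt1 was at rank 1000 and Mt2 at rank 1051 of 7142 genes, whose median correlation with Mt3 was -0.06. The genes most like it were Gm9825 (0.78), Gm11361 (0.78), Rps2-ps10 (0.77), Eif2s3y, a translation factor gene of the Y chromosome (0.74), and Gm42047 (0.74), against 0.47 at the 99th percentile. With block means subtracted too, these values were 0.52, 0.59, 0.54, 0.51 and 0.43. Eif2s3y was at or above 1 TPM in 6 of 7 null and 6 of 7 wild-type libraries of block 1, in 1 of 3 null and 0 of 5 wild-type libraries of block 2, and in 0 of 3 null libraries of block 3. The sex of the embryos is not given in the sources used here, and its part in the Mt3 difference was not tested.

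Zinc, copper and stress genes of the Smart-seq2 libraries are given by the same lists, with no test. Of all genes that averaged 1 TPM or more, 8.33% differed by at least 0.5 towards null and 30.7% towards wild type. Of 16 zinc transporters that averaged 1 TPM or more, 1 differed by at least 0.5 towards null and 6 towards wild type, with a median of -0.40 beside -0.22 for all genes. Slc39a1, a plasma membrane zinc importer, averaged 33.0 ± 16.4 TPM in null and 22.8 ± 12.6 TPM in wild type (0.64), and Slc39a11 differed by 0.26. Slc39a10, another importer, averaged 10.4 ± 8.48 TPM in null and 21.4 ± 10.1 TPM in wild type (-1.26), and Slc30a5, a transporter of the secretory pathway, 7.37 ± 5.12 TPM in null and 17.3 ± 10.7 TPM in wild type (-1.21; SD, n = 13 and 12 libraries). Slc30a10, the transporter called between dorsal and ventral diencephalon, averaged 6.82 TPM in null and 6.28 TPM in wild type.

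Of 10 copper-handling genes, 2 differed by at least 0.5 towards null and 2 towards wild type, beside 8.33% and 30.7% of all genes. Those higher in null were copper chaperones: Atox1, which delivers copper to the secretory pathway, at 386 ± 127 TPM in null and 220 ± 72.4 TPM in wild type (0.83), and Cox17, which delivers it to cytochrome oxidase, at 345 ± 138 TPM in null and 220 ± 86.8 TPM in wild type (0.66; SD, n = 13 and 12 libraries). Those higher in wild type were the membrane transporters Atp7a (-0.75), a copper pump, and Slc31a1 (-0.59), the main copper importer. Other genes of copper delivery, Ccs (0.05), Sco1 (0.17) and Sco2 (-0.18), and the transporter Slc31a2 (-0.26) did not reach 0.5 in either direction. No split between chaperones and transporters is read from the list.

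Of the 10 regulators, 0 differed by at least 0.5 towards null and 5 did towards wild type, the direction in which 30.7% of all genes did. Mtf1 averaged 16.5 ± 14.4 TPM in null and 12.1 ± 7.89 TPM in wild type (SD, n = 13 and 12 libraries), a difference of 0.05. Sp1, a general promoter factor, differed by 0.39, while Arnt, the dimer partner of the hypoxia factors, differed by -1.85 and Nfe2l2 by -1.57. Nfe2l2 was thus lower on average in null, the genotype with the higher metallothionein averages, and lower in dorsal diencephalon, the region with the lower ones. It was at or above 1 TPM in 7 of 13 null and 11 of 12 wild-type libraries, and its part in the members' levels was not tested. Of 18 redox genes, 1 differed towards null (Gss, glutathione synthetase, 0.75, with Gpx4, a glutathione peroxidase, next at 0.39) and 4 towards wild type, beside 8.33% and 30.7% of all genes. Nqo1, a quinone reductase (-0.74), and Srxn1, sulfiredoxin (-0.69), were farthest towards wild type.

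The counts of the next 3 lists are read beside the shares of all genes, 8.33% towards null and 30.7% towards wild type. Of 6 glucocorticoid-responsive genes, 1 differed by at least 0.5 towards null, Tsc22d3, which encodes GILZ (0.59), followed by Ddit4 (0.22). The 3 that differed towards wild type included Per1, a clock gene (-1.07), and Dusp1 (-0.89). Of 10 hypoxia genes, 1 differed towards null, Ndrg1 (0.52), followed by Adm, the adrenomedullin gene (0.25), and 3 towards wild type, among them the glucose transporter gene Slc2a1 (-0.87) and the oxygen sensor gene Egln3 (-0.86). Ndrg1 was at or above 1 TPM in 5 of 13 null and 4 of 12 wild-type libraries, and Adm in only 2 and 1. Of 7 neighbours of the cluster, 0 differed by at least 0.5 towards null and 5 did towards wild type, with a median of -0.86. Herpud1 (-1.54) and Gnao1, a G protein subunit gene (-1.06), were farthest, and Nudt21, an mRNA cleavage factor gene, was the highest at 0.13. In the Smart-seq2 part of the locus map the members' diamonds lay above the neighbours' circles. The members were chosen on this contrast, so nothing is read from their place. Gm45774, the antisense gene that overlaps Mt2, had a median of 0.770 TPM in null and 0.525 TPM in wild type, far below Mt2.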

How the data were processed

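Values come from 2 deposited tables. The submitters' processing notes name Trimmomatic, STAR 2.7.0a, featureCounts and the builds mm10 and GRCm38, with no role or order. The deposited bulk table is called TPM by the authors, but its columns sum to unequal totals, and 46.6% of nonzero entries lay within 0.0001 of a whole number, so they were treated as estimated counts and rounded to whole counts. The deposited Smart-seq2 table holds TPM, with columns summing to 999999.57 to 1000000.7; its depth is unknown, and its columns name a genotype but not a numbered sample. Symbols were from GENCODE M21 and matched 34581 of 34865 bulk and 55141 of 55487 Smart-seq2 identifiers.

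Bulk counts were tested with edgeR 4.0.16 (TMM, quasi-likelihood F test, R 4.3.3) over the 14701 genes that averaged 1 CPM or more, with Benjamini-Hochberg adjustment and a threshold of 0.05; the script was tested on simulated data. DESeq2 1.42.0, other filters, a replicate block and left-out libraries were alternatives. For the Smart-seq2 table, a pseudocount of 1 was used and no test was made. The members and gene lists were chosen with earlier results of these data known. In bulk, up to 4 called genes per list and direction were named; in Smart-seq2, the 2 of each list and direction with the largest difference (mean of at least 1 TPM), and for each member the 5 most like genes; other names are stated as chosen later.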

Additional observations from a re-analysis of the deposited data

How the results depend on the processing

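For Mt1, Mt2 and Mt3 no scaling, pseudocount, summary or left-out library that was tried changed a direction. The bulk log2 folds, dorsal over ventral, ran over -3.59 to -2.77 for Mt1, -1.74 to -0.92 for Mt2 and -1.40 to -0.78 for Mt3 when single libraries were left out. The Smart-seq2 differences, null minus wild type, ran over 0.52 to 0.79, 0.51 to 0.83 and 1.36 to 1.90; leaving out Smart-seq2 libraries and splitting by column block were chosen after seeing the data. The Mt3 difference was 2.27 with a pseudocount of 0.1 and 1.03 with 10, since 2 libraries are listed at 0. Its lowest left-out value, 1.36, came from leaving out either of these 2 wild-type libraries, and leaving out both was not tried. The zinc transporters called higher in ventral were 0, but 3 by DESeq2 and 2 with no filter on low counts, and ran over 0 to 3 when single libraries were left out; those called higher in dorsal ran over 1 to 2. The cause was not tested. Over all genes, 1050 were called higher in dorsal and 1403 in ventral. Leaving out single libraries gave 498 (without dorsal library 1) to 1695 (without ventral library 3) and, for the same libraries, 843 to 1928, and DESeq2 gave 1542 and 2009. Same-numbered dorsal and ventral libraries deviated together with correlations of 0.0992, 0.148 and 0.165. Libraries of different number were not compared in this way, and library 3 was farthest from the others in both regions. Whether same-numbered libraries share more than a number was not tested. With the replicate block 924 and 1083 genes were called, and 1 and 0 zinc transporters, while Ep300 and Slc31a2 did not pass (adjusted p 0.0620 and 0.0612, edgeR).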
